A study of Mus musculus with 12 samples.

Results

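This account covers the receptors for corticosteroid hormones and a set of genes that answer to them, in the striatum of mice given repeated morphine. The set holds 10 genes, picked by name from the 19935 genes that carry a single symbol on the array: the glucocorticoid receptor Nr3c1, the mineralocorticoid receptor Nr3c2, the transcription factor genes Klf9, Klf15, Cebpb, Cebpd and Bcl6, and the further target genes Arrdc2, Rhou and Litaf. Each of the 10 genes was measured by 1 of the 21780 probe sets tested, and no filter on low values was applied, so all 10 were tested.

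RNA came from the striatum of male Swiss-Albino mice aged 2 months, and each Affymetrix Mouse Gene 1.0 ST array was hybridised with RNA combined from 4 animals. The ButMorphine group (3 arrays) received sodium butyrate at 300 mg/kg, an inhibitor of histone deacetylases, and then morphine at 20 mg/kg in each of 6 induction trials on alternate days, and a morphine challenge at the same dose followed 7 days after the last trial. The SalMorphine group (3 arrays) had vehicle in place of butyrate and was otherwise treated alike, and the Saline group (6 arrays) had vehicle in both induction injections. All tissue was taken 1 h after the last injection. The source names give that last injection as saline in the Saline group, while the protocol text gives morphine to every animal. By the source names, SalMorphine differs from Saline in its repeated morphine and in the last dose. By the protocol text, SalMorphine differs from Saline in its repeated morphine only. Under either reading, ButMorphine differs from Saline in the butyrate of the induction trials as well as in morphine. The submitters call the arrays biological replicates. The spread behind each p-value is between pools of mice, not between single animals. For Saline it holds only the differences within mirrored pairs of arrays, described below.

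Corticosterone, the main glucocorticoid of mice, enters cells and binds the glucocorticoid and mineralocorticoid receptors, which are held by chaperones in the cytoplasm and act in the nucleus as ligand-dependent transcription factors. The mineralocorticoid receptor has the higher affinity and is largely occupied at rest, while the glucocorticoid receptor is filled during stress and at the daily hormone peak. The activated glucocorticoid receptor induces genes within an hour, among them transcription factors such as Klf9, Klf15 and Cebpd that carry the response further, and in many tissues it lowers its own transcript. Opioids are known to activate the hormonal stress axis in rodents.

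All values are the authors' deposited log2 differences from a baseline, in which the mean of the Saline arrays is 0 for every probe set. Saline arrays 1 and 2, 3 and 4, and 5 and 6 are mirror images within 1e-06, so the 6 arrays hold 3 independent values per gene and their range is symmetric around 0. Centring removed the level of each gene, so neither the full gene order by abundance nor the tissue's defining markers could be read as levels. Rounding of the stored numbers showed only a class of level, 8 to 16 for Nr3c1, Nr3c2, Klf9 and Rhou. The class was 4 to 8 for Klf15, Cebpb, Cebpd, Bcl6, Arrdc2 and Litaf. Array medians over the tested probe sets lay between -0.0153 and 0.0136. In these arrays of whole tissue, fewer cells of a type and less RNA per cell cannot be told apart.

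Of the 8 target genes, 6 rose in the ButMorphine arrays, against 1.76% of all tested probe sets (limma, adjusted p under 0.05, higher than Saline). They were Rhou, Klf15, Bcl6, Klf9, Arrdc2 and Cebpd, with increases of 1.41-fold down to 1.14-fold. In the SalMorphine arrays Klf15 and Rhou rose, 2 of the 10 genes, against 1.3% of all probe sets. None of the 10 genes fell by that test in either group, against 0.592% of probe sets in ButMorphine and 1.15% in SalMorphine. At an unadjusted p under 0.05, 2 of the 10 were lower in ButMorphine (Nr3c1 and Litaf), against 6.53% of all probe sets, and 1 was lower in SalMorphine (Nr3c1), against 8.51%. The median difference over the 10 genes was 0.21 in ButMorphine and 0.13 in SalMorphine, beside 0.0071 and -0.0033 over all probe sets in the same order. In either direction, 6 of the 10 were called in ButMorphine (2.35% of probe sets) and 2 in SalMorphine (2.45%). At the unadjusted threshold 6 were higher in ButMorphine (10.7%) and 5 in SalMorphine (6.91%), so that 8 and 6 passed it in either direction, beside 17.2% and 15.4% of probe sets. These genes were chosen with earlier results on glucocorticoid-responsive genes in these arrays in view, so the counts describe them and are no independent evidence of a direction. Both comparisons use the same Saline arrays, so their values stand side by side here and their likeness is no result. Markers of the choroid plexus also rose in both groups, and their part in these differences was not tested.

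**Figure D1:**
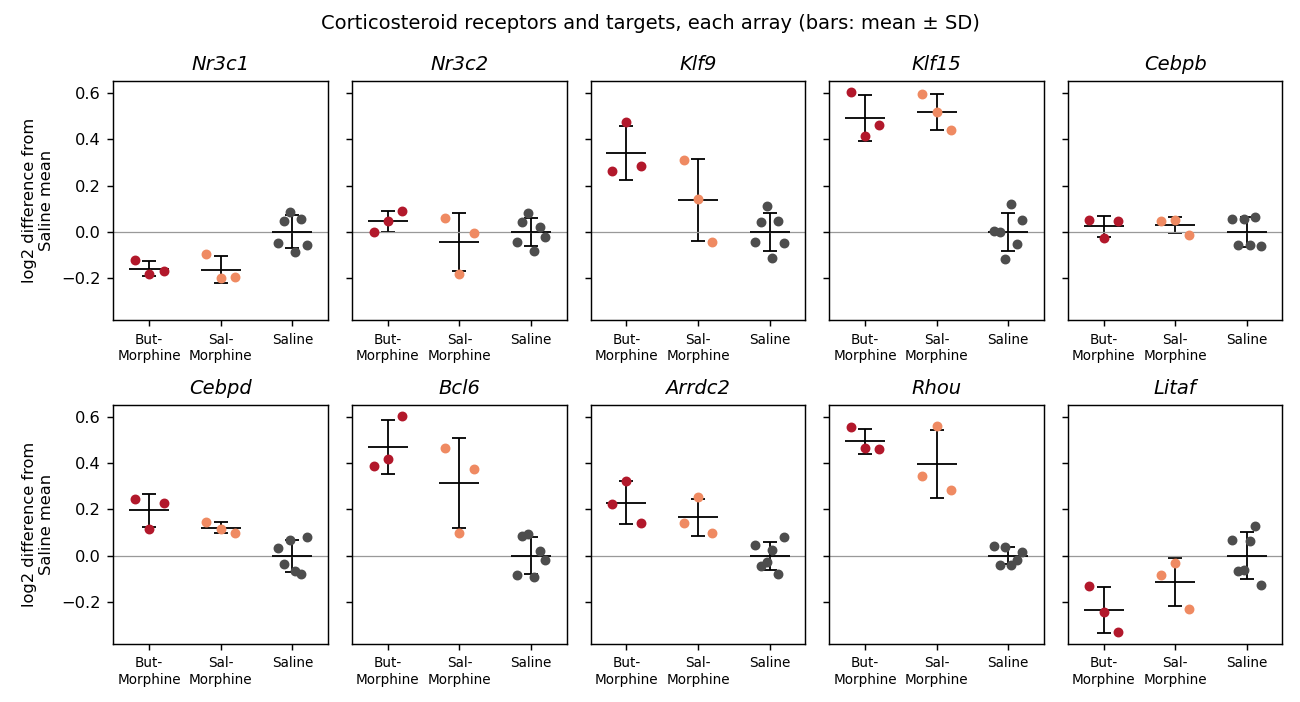
Log2 difference from the Saline mean (vertical axis) of the 10 genes in each array of the ButMorphine, SalMorphine and Saline groups, with horizontal bars for the mean and error bars for the SD. All 6 arrays of the ButMorphine and SalMorphine groups lie above every Saline array for Klf15, Rhou, Bcl6, Cebpd and Arrdc2, and below every Saline array for Nr3c1.

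Neither of the 2 receptors passed the test in either group. Nr3c1, the glucocorticoid receptor, stood at -0.12, -0.18 and -0.17 in the ButMorphine arrays and at -0.10, -0.20 and -0.19 in the SalMorphine arrays, against -0.09 to 0.09 (median 0) in the Saline arrays. All 6 arrays of the ButMorphine and SalMorphine groups were below every Saline array, which was so for 1.26% of all probe sets. The difference was -0.16 in ButMorphine (0.896 of Saline, 95% confidence interval 0.838 to 0.958, limma adjusted p = 0.0822) and -0.16 in SalMorphine (0.893 of Saline, 0.836 to 0.955, limma adjusted p = 0.079). In SalMorphine it passed only without SalMorphine array 1 (adjusted p = 0.0417), and in ButMorphine under none of 20 alternative settings.

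Nr3c2, the mineralocorticoid receptor, was at -0.0004, 0.05 and 0.09 in the ButMorphine arrays and at 0.06, -0.18 and -0.01 in the SalMorphine arrays, against -0.08 to 0.08 in the Saline arrays. Both groups overlapped the Saline range. SalMorphine array 2 alone lay below every Saline array, and without it the SalMorphine mean changed sign from -0.04 to 0.03. The test called neither difference (limma adjusted p = 0.725 in ButMorphine and 0.78 in SalMorphine), with intervals of -0.07 to 0.16 and -0.16 to 0.07 on the log2 scale.

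Klf15 and Rhou were the 2 target genes called in both groups. Klf15, a Krüppel-like factor that directs amino acid and glucose metabolism and is a direct target of the glucocorticoid receptor in liver, muscle and airway, was at 0.60, 0.41 and 0.46 in ButMorphine and at 0.59, 0.52 and 0.44 in SalMorphine, against -0.12 to 0.12 in Saline. Every array of both groups stood clear of the Saline arrays. Klf15 rose 1.41-fold in ButMorphine (0.49 ± 0.10, SD, n = 3, limma adjusted p = 0.000465) and 1.43-fold in SalMorphine (0.52 ± 0.08, SD, n = 3, limma adjusted p = 0.000324). It was called under all 19 alternatives in which it was tested, in both groups.

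Rhou encodes an atypical small GTPase that acts on the actin cytoskeleton. It was at 0.56, 0.46 and 0.46 in ButMorphine and at 0.35, 0.56 and 0.28 in SalMorphine, against -0.04 to 0.04 in Saline. The lowest ButMorphine or SalMorphine array was well above the highest Saline array. Rhou rose 1.41-fold in ButMorphine (0.49 ± 0.05, SD, n = 3, limma adjusted p = 0.000286) and 1.32-fold in SalMorphine (0.40 ± 0.15, SD, n = 3, limma adjusted p = 0.0017). It missed the threshold in both groups when the replicate number was a block (limma adjusted p = 0.0768 in ButMorphine and 0.156 in SalMorphine).

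Bcl6 encodes a transcriptional repressor that bears zinc fingers and a BTB domain, and is known from germinal centre B cells and from the silencing of inflammatory and Notch target genes. It was at 0.39, 0.42 and 0.60 in ButMorphine and at 0.47, 0.10 and 0.38 in SalMorphine, against -0.09 to 0.09 in Saline. SalMorphine array 2 sat just above the highest Saline array, and the other arrays were far above it. Bcl6 rose 1.38-fold in ButMorphine (0.47 ± 0.12, SD, n = 3, limma adjusted p = 0.00655). In SalMorphine it was 0.31 ± 0.19 above Saline (1.24-fold, SD, n = 3) and missed the threshold (limma adjusted p = 0.0524). It passed under 5 of 19 alternatives, at 0.42 without SalMorphine array 2 (limma adjusted p = 0.0099). The adjusted p was 0.0363 to 0.0498 under the other 4 of these, and in ButMorphine it missed with the replicate number as a block (adjusted p = 0.214) and after quantile normalization (0.111).

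To show what lies just before the transcript starts of these 3 genes, which moved most, the 250 bases upstream of each RefSeq start (GRCm38.p6) are given 5′ to 3′ on the gene's strand. The windows are Klf15 at chr6:90462326-90462575 (plus strand), Rhou at chr8:123653679-123653928 (plus strand), and Bcl6 at chr16:23981284-23981533 and chr16:23988853-23989102 (minus strand), the second of them upstream of the outer start. Capitals mark the glucocorticoid receptor hexamer AGAACA or its reverse complement TGTTCT, and the cyclic AMP response pentamer TGACG or its reverse complement CGTCA.
Klf15: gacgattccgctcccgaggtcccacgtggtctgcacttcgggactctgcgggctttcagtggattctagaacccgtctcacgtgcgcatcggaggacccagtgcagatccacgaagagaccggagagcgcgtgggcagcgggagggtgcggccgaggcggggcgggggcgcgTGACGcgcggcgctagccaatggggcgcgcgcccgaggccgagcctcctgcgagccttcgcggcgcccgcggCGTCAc
Rhou: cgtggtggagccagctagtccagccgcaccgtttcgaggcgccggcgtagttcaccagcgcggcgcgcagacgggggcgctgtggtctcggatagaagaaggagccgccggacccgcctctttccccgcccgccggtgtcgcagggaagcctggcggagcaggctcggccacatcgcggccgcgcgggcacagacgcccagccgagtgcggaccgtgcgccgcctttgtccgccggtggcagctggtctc
Bcl6 inner start: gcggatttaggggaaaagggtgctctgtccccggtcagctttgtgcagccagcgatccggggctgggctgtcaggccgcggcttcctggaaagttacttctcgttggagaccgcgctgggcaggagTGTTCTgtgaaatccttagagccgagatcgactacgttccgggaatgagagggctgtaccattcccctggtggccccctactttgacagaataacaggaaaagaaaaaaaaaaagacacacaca
Bcl6 outer start: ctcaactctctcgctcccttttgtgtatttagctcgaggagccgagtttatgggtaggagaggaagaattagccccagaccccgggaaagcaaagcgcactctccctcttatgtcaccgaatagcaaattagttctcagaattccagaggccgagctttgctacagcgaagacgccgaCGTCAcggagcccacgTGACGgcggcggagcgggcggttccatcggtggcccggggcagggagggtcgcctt
The Bcl6 inner window held the hexamer, as TGTTCT at bases 124 to 119 before the start, and it was the only 1 of the 9 windows of 8 of the genes to do so, beside 16.1% of the 32851 windows in the table. The receptor's palindromic core, ACANNNTGT, which may share bases with the hexamer, was in 0 of the 9 windows, beside 5.84% of all windows. The pentamer was in 4 of the 9, in Klf9, Klf15, Cebpb and the outer Bcl6 window, beside 17.8% of all windows. The 9 windows held 54.8% to 81.6% G and C, beside a median of 52.4% over the table. These matches describe the letters within 250 bases and say nothing of receptor sites farther away.

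Klf9, another Krüppel-like factor, is a direct target of both corticosteroid receptors in hippocampal neurons. It was at 0.26, 0.47 and 0.29 in ButMorphine and at 0.31, 0.14 and -0.04 in SalMorphine, against -0.11 to 0.11 in Saline. All 3 ButMorphine arrays were above the Saline range, while SalMorphine array 3 lay inside it. Klf9 rose 1.27-fold in ButMorphine (0.34 ± 0.12, SD, n = 3, limma adjusted p = 0.0325). In SalMorphine it was at 0.14 ± 0.18 (SD, n = 3) and did not pass (limma adjusted p = 0.415).

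Cebpd, the CCAAT/enhancer-binding protein delta gene of the acute-phase response, was at 0.24, 0.11 and 0.23 in ButMorphine and at 0.15, 0.12 and 0.10 in SalMorphine, against -0.08 to 0.08 in Saline. Every ButMorphine and SalMorphine array was above every Saline array, by a small margin in SalMorphine and in ButMorphine array 2. It rose 1.14-fold in ButMorphine (0.20 ± 0.07, SD, n = 3, limma adjusted p = 0.0412) and did not pass in SalMorphine (0.12 ± 0.02, limma adjusted p = 0.206). Its relative Cebpb, which encodes the beta form, was at 0.05, -0.03 and 0.05 in ButMorphine and at 0.05, 0.05 and -0.01 in SalMorphine, against -0.06 to 0.06 in Saline. No array of Cebpb left the Saline range, and its 95% intervals of -0.07 to 0.11 and -0.06 to 0.12 on the log2 scale hold the values compatible with the data.

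Arrdc2 encodes an arrestin-domain protein that acts in the trafficking and ubiquitination of membrane proteins. It was at 0.22, 0.32 and 0.14 in ButMorphine and at 0.14, 0.25 and 0.10 in SalMorphine, against -0.08 to 0.08 in Saline, with no overlap. It rose 1.17-fold in ButMorphine (0.23 ± 0.09, SD, n = 3, limma adjusted p = 0.0339) and did not pass in SalMorphine (0.16 ± 0.08, limma adjusted p = 0.113). Litaf, which encodes a membrane protein of late endosomes and lysosomes, was at -0.13, -0.24 and -0.33 in ButMorphine and -0.08, -0.03 and -0.23 in SalMorphine, against -0.13 to 0.13 in Saline. The ButMorphine arrays were all below the Saline range, by less than 0.01 for array 1. Litaf did not pass in ButMorphine (-0.23 ± 0.10, 0.85 of Saline, limma adjusted p = 0.0784) or in SalMorphine (-0.11 ± 0.10, limma adjusted p = 0.442). In ButMorphine it passed under 1 of 19 alternatives, with array weights (limma adjusted p = 0.0492).

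The ButMorphine calls of Klf9, Cebpd and Arrdc2 were near the threshold. Each was lost under 9 or 10 of 19 or 20 alternatives, with adjusted p of up to 0.368 for Klf9, 0.3 for Cebpd and 0.229 for Arrdc2. Counting each mirrored pair of Saline arrays once, with the Saline mean given the error of 6 pools, left 3 genes called in ButMorphine (Klf15, Rhou and Bcl6) and 2 in SalMorphine (Klf15 and Rhou). That setting was chosen after the data were seen. Leaving out ButMorphine array 1 likewise left 3 calls in ButMorphine, leaving out array 2 or 3 left 4, and leaving out any mirrored pair of Saline arrays left 3. Klf9 was no longer called without any 1 of the 3 ButMorphine arrays.

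**Figure D2:**
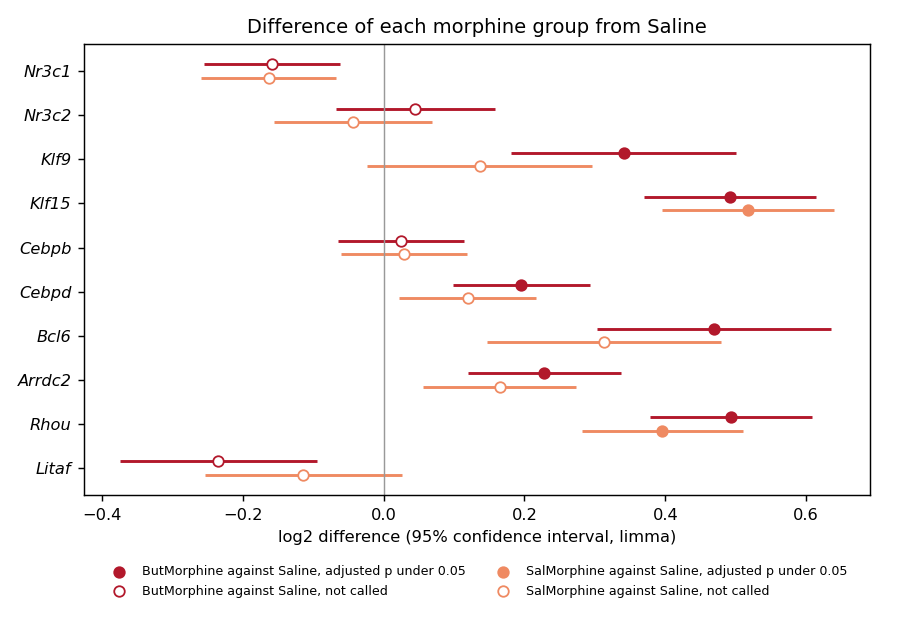
Log2 difference (horizontal axis) of each gene in ButMorphine and in SalMorphine from Saline, with 95% confidence intervals from limma over all 12 arrays and filled points for adjusted p under 0.05. In ButMorphine 6 genes are called and in SalMorphine 2, and both estimates of Nr3c1 lie near -0.16.

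**Figure D3:**
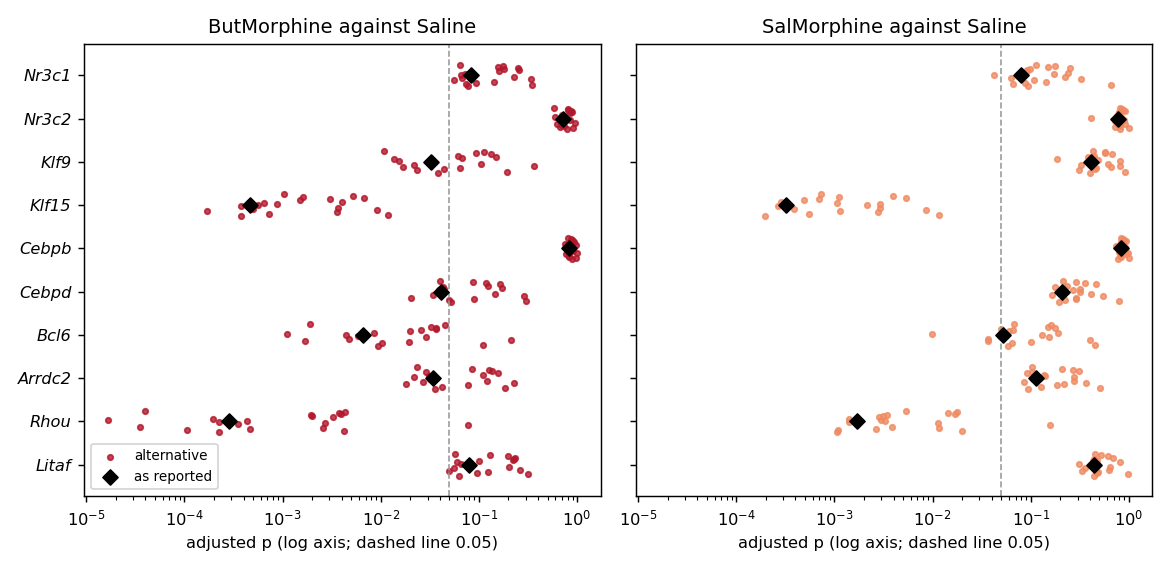
Adjusted p (horizontal log axis) of each gene against Saline as reported (diamonds) and under each alternative setting (points), for ButMorphine on the left and SalMorphine on the right. Klf15 stays left of 0.05 in both panels. Klf9, Cebpd, Arrdc2, Bcl6, Rhou and Litaf in ButMorphine, and Bcl6, Rhou and Nr3c1 in SalMorphine, lie on both sides of 0.05.

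By position of the arrays alone, 5 of the 10 genes (Klf15, Rhou, Bcl6, Cebpd and Arrdc2) had all 6 arrays of the ButMorphine and SalMorphine groups above every Saline array, beside 1.97% of all probe sets. With Nr3c1 below, 6 of the 10 stood apart in either direction, beside 3.23%. In ButMorphine, 6 genes were wholly above Saline and 2 wholly below, beside 7.22% and 4.57% of probe sets (8 of 10 and 11.8% in either direction). In SalMorphine, 5 were wholly above and 1 wholly below, beside 3.93% and 4.17% (6 of 10 and 8.09% in either direction). The 6 Saline arrays carry only 3 independent values for each gene.

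The comparison of ButMorphine with SalMorphine asks whether butyrate during induction changed the response. No gene of the 10 was called (limma, adjusted p under 0.05), nor was any of the 21780 probe sets (0%). At an unadjusted p under 0.05 there were 1898 probe sets, 8.71% of all, and 1 of the 10 genes, Klf9. It was higher in ButMorphine, as were 6.44% of all probe sets, while 2.28% were lower. Klf9 was 1.15-fold higher in ButMorphine than in SalMorphine (0.20, 95% interval 0.02 to 0.39, limma adjusted p = 0.526), with ButMorphine arrays at 0.26 to 0.47 and SalMorphine arrays at -0.04 to 0.31. The groups overlapped for Klf9, and for each of the other 9 genes too. Over all probe sets 10.8% had no overlap, 7.73% with ButMorphine above and 3.11% with it below. For a set of 10 genes, that share does not set them apart from the rest.

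For Bcl6 the difference between ButMorphine and SalMorphine was 0.16 (interval -0.03 to 0.35), and for Rhou it was 0.10 (-0.04 to 0.23). Cebpd differed by 0.08 (-0.04 to 0.19), Arrdc2 by 0.06 (-0.06 to 0.19) and Nr3c2 by 0.09 (-0.04 to 0.22). Klf15 was at -0.03 (-0.17 to 0.12), Cebpb at -0.005 (-0.11 to 0.10), Nr3c1 at 0.00 (-0.11 to 0.12) and Litaf at -0.12 (-0.28 to 0.04). Of the 10 genes, 7 had a higher mean in ButMorphine than in SalMorphine, while 57% of all probe sets were above 0 in this comparison. Each interval bounds a difference and does not show that the groups were alike.

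**Figure D4:**
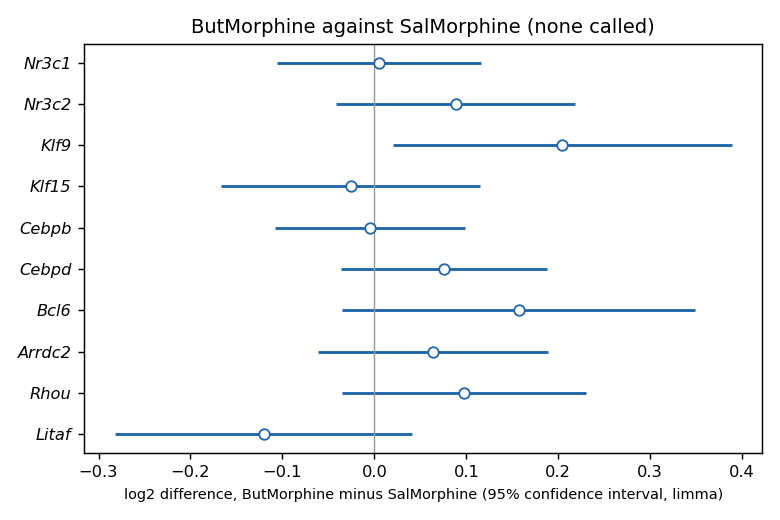
Log2 difference of ButMorphine minus SalMorphine (horizontal axis) for each gene, with 95% confidence intervals from limma over all 12 arrays. The interval of Klf9 runs from 0.02 to 0.39 and those of the other 9 genes include 0.

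Other genes of the hormone pathway were mostly close to Saline. Among 12 measured chaperones and immunophilins of the receptors, covered by 19 probe sets, 1 rose in each group and 0 fell: Fkbp5, a co-chaperone that lowers the receptor's hormone affinity and is itself a receptor target, rose by 0.61 in ButMorphine and by 0.52 in SalMorphine. The list's median was -0.05 in ButMorphine and 0.05 in SalMorphine. None of 6 genes of steroid metabolism and export, 10 coregulators or 6 other steroid and estrogen-related receptors was called in either group. Those with the lowest unadjusted p in any of the 3 comparisons were the drug exporter gene Abcb1b (0.13 in ButMorphine and 0.06 in SalMorphine) and Abcb1a (-0.02 and -0.08), the coactivator Ppargc1a (0.20 and 0.10, with a second probe set at 0.11 and 0.06), the corepressor Nrip1 (0.08 and -0.02, named for its p between ButMorphine and SalMorphine), the progesterone receptor Pgr (-0.14 and -0.07) and Esrra (-0.15 and -0.15), in the same order of groups.

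Families of the target genes were then set beside them, since Klf9 and Klf15, Cebpb and Cebpd, and Arrdc2 have relatives on the array. Of 15 other Krüppel-like factors, 0 were called, with differences of -0.11 to 0.14 in ButMorphine and -0.15 to 0.14 in SalMorphine. Klf17 (0.14 in both) had the lowest unadjusted p among them against Saline. Klf6 (0.09 in ButMorphine and -0.08 in SalMorphine) had the lowest between ButMorphine and SalMorphine (limma, unadjusted p = 0.00803), where it was not called either. Of 4 C/EBP relatives, Ddit3, which encodes the stress factor CHOP, fell by 0.31 in ButMorphine (limma adjusted p = 0.00439) and was at -0.09 in SalMorphine.

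Of 5 arrestin-domain relatives 2 rose in both groups: Txnip, an inhibitor of thioredoxin and of glucose uptake, by 0.51 in ButMorphine and 0.57 in SalMorphine, and Arrdc3 by 0.28 and 0.29. Of 7 partners and relatives of Bcl6, Zbtb16, another BTB zinc finger repressor, rose by 1.17 in ButMorphine and 0.93 in SalMorphine. None of 5 partners and relatives of Litaf was called, and the lowest p over the 3 comparisons were those of Wwox (0.08 in ButMorphine and 0.07 in SalMorphine) and Tsg101 (0.11 and -0.02, with a second probe set at 0.08 and 0.04).

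**Figure D5:**
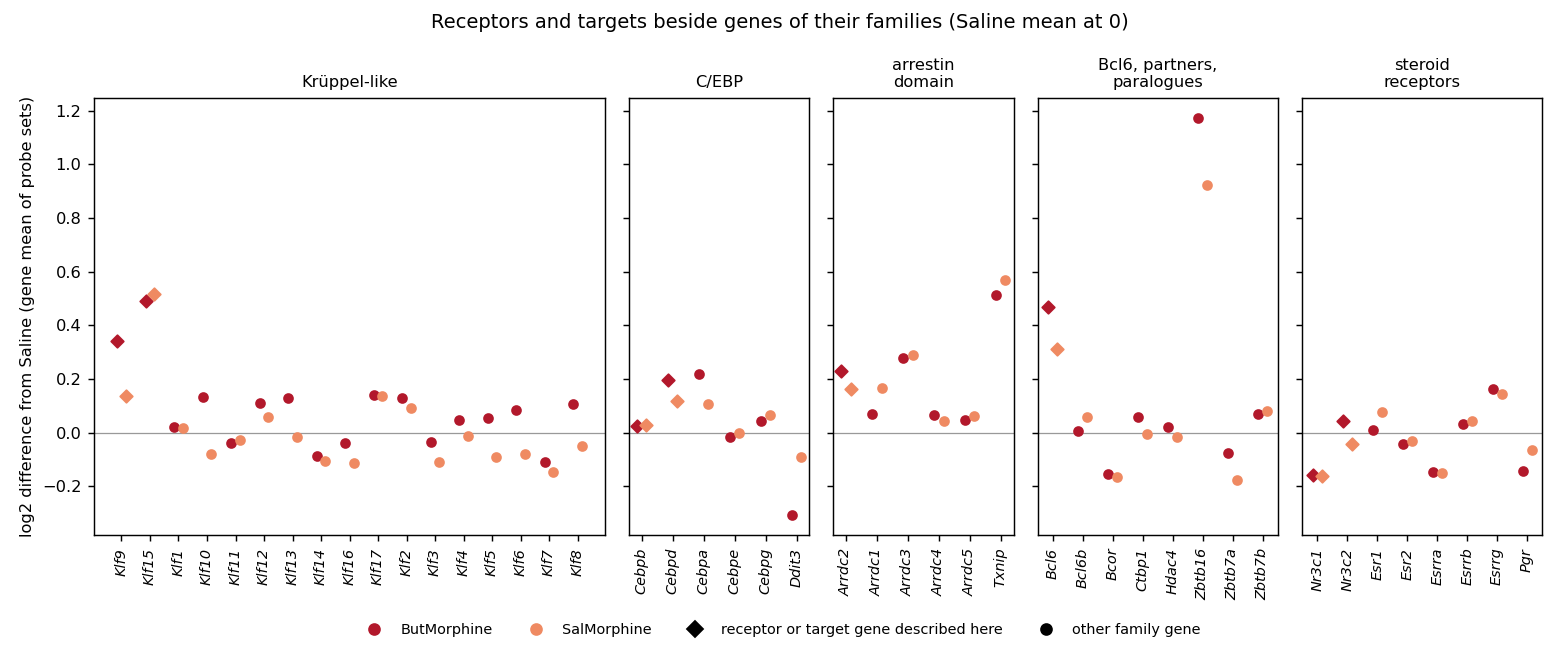
Log2 difference from Saline (vertical axis) in ButMorphine and SalMorphine for the 10 genes except Litaf and Rhou (diamonds) and the other measured genes of their families (circles, means of probe sets). Klf9 in ButMorphine and Klf15 in both groups lie above the 15 other Krüppel-like factors, which span -0.15 to 0.14, and Zbtb16 is the highest point at 1.17.

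Of 13 measured classical glucocorticoid-induced genes set beside them, 13 rose in ButMorphine and 11 in SalMorphine, with medians of 0.61 and 0.52. Those with the lowest adjusted p were the kinase gene Sgk1 (1.05 in ButMorphine and 1.06 in SalMorphine), the phosphatase gene Dusp1 (1.12 and 0.76), Zbtb16 (above), Sult1a1 (0.54 and 0.42), the NF-kappa-B inhibitor gene Nfkbia (0.74 and 0.64) and Pdk4 (0.91 and 0.80). That list was also chosen with results of these arrays known. The 6 risers of the present set, at 0.20 to 0.49 in ButMorphine, were below that list's median.

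The genes most alike in pattern were found by Pearson correlation over the 12 arrays, which share the step between these 2 groups and Saline. For Klf15 they were Gpx8 (r = 0.978), the choroid plexus potassium channel gene Kcnj13 (0.972) and the anion exchanger gene Slc4a2 (0.971). For Rhou they were Fam83d (0.982), the glucocorticoid-induced leucine zipper gene Tsc22d3 (0.957) and Pon3 (0.957). For Bcl6 they were the neuronal activity gene Npas4 (0.961), Orc5 (0.956) and Stam2 (0.953). Klf9 was closest to Gm24148 (0.959), A630001O12Rik (0.948) and the potassium channel gene Kcna5 (0.946). Arrdc2 was closest to Bicc1 (0.959), Susd6 (0.955) and the lipid droplet gene Plin4 (0.939), and Cebpd to Itpk1 (0.939), Olfr1102 (0.935) and Suco (0.928). Among the 10 genes, Klf15 and Rhou had r = 0.91 over the 12 arrays but 0.13 once group means were removed, while Nr3c2 and Bcl6 had 0.51 and 0.96, both lowest among the 6 ButMorphine and SalMorphine arrays in SalMorphine array 2.

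Markers of other cell types also moved. Each of the 9 choroid plexus markers on the array rose in SalMorphine, and 8 did in ButMorphine (all but Aqp1), led by Ttr (3.42 in ButMorphine and 3.75 in SalMorphine) and Kcnj13 (2.07 and 2.58), with Kl, Sostdc1, Clic6, Folr1, Otx2 and Calml4 at 0.31 to 0.94 and 0.58 to 1.16. The mean over that list was 0.87 to 1.18 in the ButMorphine arrays and 1.21 to 1.43 in the SalMorphine arrays, against -0.13 to 0.13 in the Saline arrays. This list mean, like Klf15, Rhou, Bcl6, Cebpd and Arrdc2, was above every Saline array in all 6 ButMorphine and SalMorphine arrays. The same held for the means of the classical glucocorticoid-induced, arrestin-domain and astrocyte lists. The glucocorticoid-induced mean was 0.63 to 0.77 in ButMorphine and 0.56 to 0.57 in SalMorphine, against -0.02 to 0.02 in Saline. Of 8 meningeal markers, Igf2 rose in ButMorphine (0.62) and in SalMorphine (0.85), and Ogn in SalMorphine (0.22).

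Of 8 endothelial markers, Cldn5, Kdr, Tek and Flt1 fell in both groups, with list means of -0.26 to -0.16 in ButMorphine and -0.33 to -0.25 in SalMorphine, against -0.05 to 0.05 in Saline. Of 8 microglial markers, P2ry13 and Cx3cr1 fell in both groups and Itgam in SalMorphine, with list means of -0.22 to -0.16 in ButMorphine and -0.27 to -0.18 in SalMorphine, against -0.08 to 0.08 in Saline. Of 9 astrocyte markers, Gjb6 rose in both. None of 8 oligodendrocyte and 5 cortical excitatory neuron markers was called. Of 8 thalamic and septal markers, none was called in ButMorphine, and Trpc4, Slc17a6 and Calb2 rose in SalMorphine. The list mean differed between arrays of a group. It was 0.45, -0.07 and 0.19 in ButMorphine arrays 1, 2 and 3. In SalMorphine arrays 1, 2 and 3 it was 0.06, 0.48 and 0.54, against -0.04 to 0.04 in Saline. Of 8 striatal projection neuron markers, none was called in ButMorphine, and the dopamine receptor gene Drd2 fell by 0.16 in SalMorphine. All 8 were below Saline in SalMorphine, at -0.25 to -0.0044. Their list means were -0.06 to 0.04 in ButMorphine and -0.16 to -0.11 in SalMorphine, against -0.06 to 0.06 in Saline. The cortical list averaged -0.69 in SalMorphine array 2, where Bcl6 and Nr3c2 were lowest, beside 0.11 and -0.33 in SalMorphine arrays 1 and 3. The part of these cell types in the differences of the 10 genes was not tested.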

How the data were processed

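Expression was measured on 12 Affymetrix Mouse Gene 1.0 ST arrays, 1 for each pool of 4 mice, per the labels. The values are the authors' deposited log2 differences from a baseline (28815 rows). Their log base and how the probe signals were corrected, normalized and combined: not given in the sources used here. Base 2 is inferred from single-precision rounding steps of numbers between 4 and 16. Depth has no meaning for arrays, and their number limits the precision.

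Of the rows, 21780 had 1 gene symbol in the platform annotation and were tested, 1605 had several and 5430 none. RefSeq's gene table (GRCm38.p6) held the Entrez ID of 21689 of them and changed no symbol. The test was limma 3.58.1 under R 4.3.3 (lmFit and eBayes, 3 group means, 1 shared spread over 12 arrays, 9 residual and 3.87 prior degrees of freedom), with Benjamini-Hochberg adjustment over all tested probe sets and a threshold of 0.05. The fit counts each mirrored Saline array as separate, which understates the Saline spread. The SalMorphine against Saline test was also run on simulated arrays. Their Saline pairs were mirrored, and each pair's mean was subtracted from 1 ButMorphine and 1 SalMorphine array, a link the labels do not give. There the share of false calls was above the nominal threshold. In the real arrays, deviations of same-numbered ButMorphine and SalMorphine arrays correlated at -0.10, -0.27 and -0.23, so the simulated link was not seen in them. The simulation therefore cannot give the share of false calls for the real arrays, which was not tested. Confidence intervals are at 95%.

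The 10 genes, the gene lists, the tests and the alternatives were chosen with earlier results of these data known. All 10 genes are named in every comparison. From each list the text names the members past the threshold (up to 6 by lowest adjusted p) or else the 2 with the lowest unadjusted p in any of the 3 comparisons, ButMorphine against SalMorphine included, and like genes are the 3 highest correlations per called gene. One list of relatives is not reported here. Markers of other cell types are named where they pass the threshold. Promoter windows are RefSeq's and were matched by symbol for 8 genes, with strand orientation checked by the position of TATA boxes. Sequence of the other genes was not used here.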

Additional observations from a re-analysis of the deposited data

How the results depend on the processing

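Klf15 was called against Saline in both groups under each alternative in which it was tested, and Rhou under each but the replicate block. The number of the 10 genes called in ButMorphine, 6 as reported, was 3 at adjusted p under 0.01, 2 after quantile normalization, 2 with only probe sets stored at 8 or more (which hold 4 of the 10 genes), 3 with trend and robust variance, 3 with mirrored Saline pairs counted once and the error of 6 pools, and 3 to 6 with an array or a mirrored Saline pair left out. In SalMorphine, 2 as reported, it was 4 at adjusted p under 0.10, 1 with only probe sets stored at 8 or more, and 2 to 3 with arrays left out. Over all probe sets, the SalMorphine count of 534 became 151 and 1015 at adjusted p under 0.01 and under 0.10, 70 after quantile normalization, 208 with stored values of 8 or more, 222 with trend and robust variance, 146 with mirrored pairs counted once and the error of 6 pools, and 146 to 1092 with arrays left out. The ButMorphine count of 512 became 168 and 1108, 97, 178, 218 and 171 in the same order, with 978 under array weights, 1134 with only the 2 groups compared and 157 to 807 with arrays left out. ButMorphine against SalMorphine had 0 calls as reported, 2 over all rows, 1 with array weights and 0 to 27 with arrays left out, and none of the 10 genes under any alternative. The split of SalMorphine calls was 284 higher and 250 lower as reported and 56 and 14 after quantile normalization. In ButMorphine it was 383 and 129 as reported and 315 and 167 with arrays median-centred. The single arrays that moved these counts most were SalMorphine array 1 (1092 in SalMorphine and 27 between the groups without it), SalMorphine array 3 (219 and 12), SalMorphine array 2 (807 in ButMorphine), and ButMorphine arrays 1 and 2 (206 and 232 in ButMorphine), and without a mirrored Saline pair there were 146 to 196 calls in SalMorphine and 157 to 198 in ButMorphine. A filter on brightness could use only the class that rounding shows, and the background correction could not be varied on these values.

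The replicate number as a block left 1 of the 10 genes called in each group, Klf15, with 38 probe sets in ButMorphine and 49 in SalMorphine. Nothing in the labels pairs the arrays: same-numbered ButMorphine and SalMorphine arrays had deviations from their group means that correlated at -0.10, -0.27 and -0.23, and 0 of 3 correlated best with their own number. Signs turned only for values near 0. With an array left out, Nr3c2 in SalMorphine ranged from -0.0941 to 0.0261. Between ButMorphine and SalMorphine, Nr3c1 was at -0.0066 with arrays median-centred, -0.0268 after quantile normalization and -0.0133 to 0.0379 with an array left out. Cebpb was at 0.0115 with array weights and -0.0258 to 0.0209 with an array left out, and Klf15 at -0.0815 to 0.0147. The cause of these changes was not tested.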
